A study of Mus musculus with 42 samples.

Results

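Pol II occupancy over protein-coding genes was compared between macrophages lacking Nur77 (KO) and wild-type macrophages (WT) after 1 h of lipopolysaccharide (LPS). The comparison rests on 6 of the 42 libraries of the series, 3 titled as KO and 3 as WT, and on 12079 of 21897 protein-coding genes of the mouse annotation, which were tested because either genotype had Pol II on them in 2 or more of its libraries. Nur77 is a nuclear receptor encoded by Nr4a1. The study profiled Pol II and acetylated lysine 27 of histone H3 (H3K27ac) by ChIP-seq in unstimulated cells and at 1 and 18 h of LPS. Cells were bone marrow-derived macrophages, grown from marrow of male mice with medium conditioned by L929 fibroblasts, and all 6 libraries came from cells given LPS at 100 ng/ml. The strain label is C57Bl6/J for both genotypes. The KO mice carried a whole-body deletion of Nr4a1, made with a Cre driven by a cytomegalovirus promoter and floxed Nr4a1, and were described as bred free of Cre afterwards, with WT littermates as controls. The genotype label of the KO libraries names only cre, and effects of Cre and of the deletion cannot be told apart from these libraries. No source says whether the 3 libraries of a genotype came from separate mice, and p-values therefore measure the spread between these libraries.

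RNA polymerase II (Pol II) transcribes protein-coding genes. It is loaded at the gene start, often pauses shortly after it, and is then released into the gene body, so that its occupancy over a gene tracks how much the gene is being transcribed. LPS, a component of the outer membrane of gram-negative bacteria, is sensed by Toll-like receptor 4. Within the first hour macrophages switch on immediate-early genes (among them those of AP-1, EGR and NR4A factors), and then cytokine and chemokine genes, and antiviral genes follow through interferon beta.

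The value of a gene was the sum of normalized tags (tags per 10 M tags of the library) in the Pol II regions found in that library, over the gene and 500 bp on each side. A region partly inside this window was shared by its overlap, and 0 means that no region was found, not that no tag was present. Differences are given as log2(KO) minus log2(WT) of normalized tags plus 10, which understates changes of low genes. Called genes had both a limma p-value, adjusted by Benjamini-Hochberg, under 0.05 and an absolute log2 change over 1, and members of gene lists were counted at the adjusted p alone. Because macrophages were profiled in bulk, fewer cells carrying Pol II on a gene and less Pol II per cell cannot be told apart.

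The libraries held 23.2 to 32.3 M tags in KO and 21.7 to 29.0 M in WT. KO libraries correlated with each other at a Pearson r of 0.992 over genes and with WT libraries at 0.970 to 0.974, so the 6 libraries grouped by their labels. The number of regions was nearly the same, with 38934 ± 716 in KO and 38853 ± 1007 in WT (SD, n = 3, exact two-sided permutation p = 0.9). The regions of KO covered more of the genome, 163.5 ± 4.67 Mb against 151.4 ± 6.42 Mb, and held 79.8% of tags against 76.9%. For both quantities the exact permutation p was 0.1, the smallest that the 20 relabelings of 3 against 3 allow. The covered length differed by 12.1 Mb, and by 6.6 to 15.8 Mb when 1 replicate number was left out, the lowest without replicate 2. When regions of low tag density were left out by one floor for all 6 libraries, the gap in covered length was 6.79 Mb (exact permutation p 0.1), and the number of regions in KO minus WT went from 80.3 to -4010 (exact permutation p 0.2). The fragment length recorded in the file headers was 228 to 262 bp in KO and 152 to 214 bp in WT, longer in each KO library than in each WT library. Over 10974 genes, the H3K27ac library labelled KO replicate 1 correlated with the 3 WT libraries at an r of 0.977 to 0.979. With the other KO libraries its r was 0.913 and 0.914. At Ifi202b and Trim30d, however, it lay with the other KO libraries (values below). Lists and counts of H3K27ac are therefore given with and without it.

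Pol II over the median gene was higher in KO. Over the 11024 genes above 0 in all 6 libraries, the library medians were 143, 145 and 142 normalized tags in KO and 122, 114 and 120.0 in WT, without overlap (exact permutation p = 0.1, the smallest possible). The median log2 change of all 12079 genes was 0.24. As deposited, 4603 genes were higher in KO at an adjusted p under 0.05 (38.1% of those tested) and 910 were lower (7.53%). Without replicate 2 of both genotypes 2511 were higher. With an absolute log2 change over 1 as well, 423 genes were called higher (3.5%) and 151 lower (1.25%), together 574 (4.75%), and 6480 genes had an unadjusted p under 0.05. The part of the fragment length in this shift was not tested.

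Scaling each library to a common median brought the median log2 change to 0.01. At an adjusted p under 0.05, 2060 genes were then higher (17.1%) and 2601 lower (21.5%), and past the threshold of 1 there were 244 higher (2.02%) and 234 lower (1.94%), 3.96% of genes in all. The share of called genes that were higher thus went from 73.7% as deposited to 51.0% after centring. Leaving out regions that an input library also had gave 250 higher and 317 lower past the threshold of 1, and 567 higher and 419 lower at the adjusted p alone (median 0.09), so that the majority turned for the larger changes and not at the adjusted p alone. A Pol II region touched by any region of a 1 h input was dropped whole, 60.2 to 61.9% of regions in each 1 h library. Of 103 single genes followed through the alternatives, 51 could still be tested. How much of a turned direction came from this removal was not tested. All 244 genes called higher after centring were among the 423, and all 151 genes called lower as deposited were among the 234. Values below are as deposited unless said to be centred.

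**Figure D1:**
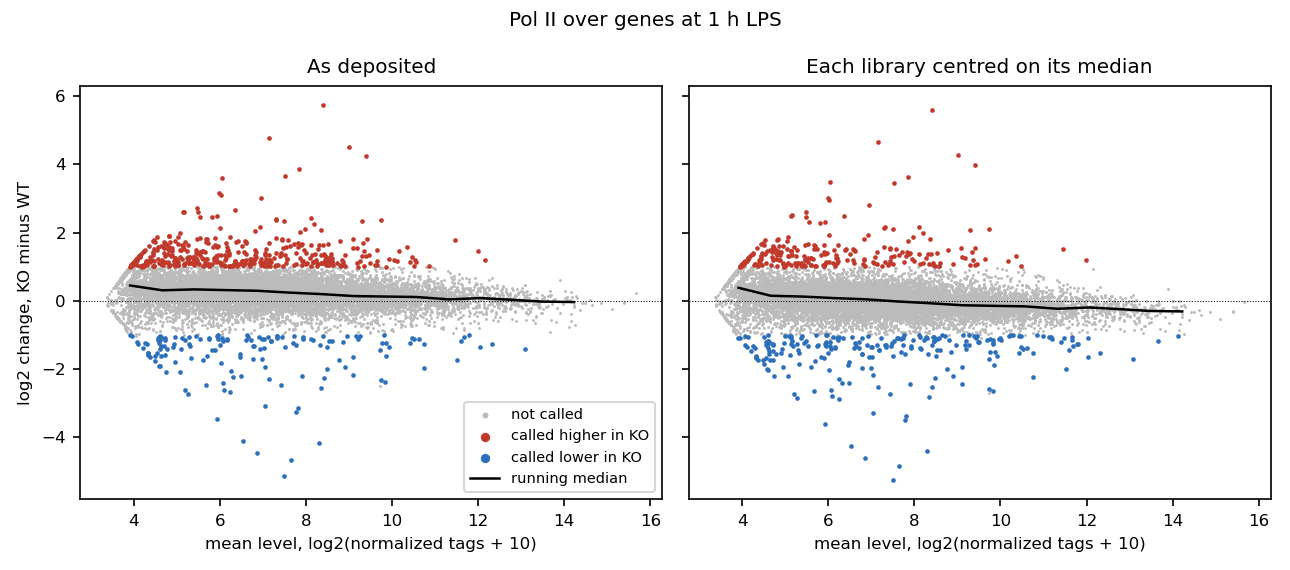
Log2 change in Pol II (KO minus WT, y axis) against the mean level of each gene (x axis, log2 of normalized tags plus 10) for the 12079 genes tested, as deposited (left) and after each library was centred on its median (right). Red points were called higher in KO (423 and 244), blue points lower (151 and 234), and the median over classes of level goes from 0.34 at the lowest to 0.07 at the highest on the left and from 0.21 to -0.21 on the right.

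The shift was not the same for all genes. Among genes with a mean of at most 20 normalized tags the median log2 change was 0.34, and it was 0.25 between 100 and 300 and 0.07 above 1000, where the centred median was -0.21. It also rose with gene length. Genes of up to 3 kb had a median of 0.08, those of 10 to 30 kb one of 0.25, and the 255 genes longer than 300 kb one of 0.48. In the longest class 60.8% of genes passed as higher and 3.53% as lower, against 20.4% and 9.99% in the shortest. The median length of such a gene in Pol II regions was 4.11 kb in KO and 2.81 kb in WT, whereas genes of up to 3 kb had 1.90 kb and 1.98 kb. After centring the shortest class had 6.61% higher and 28.7% lower (median -0.16), so its direction turned, and the longest 39.2% and 11.4% (median 0.27). No test was run between the classes.

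Gene parts were then taken separately. At gene starts (500 bp on each side) 10312 genes were tested, 2066 were higher (20%) and 346 lower (3.36%), with a median of 0.18. Over gene bodies 11241 were tested, with 3374 higher (30%), 860 lower (7.65%) and a median of 0.21. From 500 to 3000 bp past the gene end 7626 were tested, and 841 were higher (11%) and 882 lower (11.6%). Without replicate 2 of both genotypes, 658 were higher and 160 lower at starts, 1700 higher over bodies, and 404 higher and 526 lower downstream. Centring turned the majority over all genes tested, to 658 higher and 862 lower at starts (median 0.03) and 1817 and 2137 over bodies (median 0.01). In the 6150 genes tested in all 3 parts the medians were 0.13 at the start, 0.16 over the body and -0.02 downstream. Each part was centred on its own library medians, which removes the shift of each part. Centred medians therefore cannot show whether the parts differ. After centring the medians of these genes were -0.03, -0.07 and -0.03. More of them were then lower than higher at starts (683 and 263) and over bodies (1543 and 853).

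**Figure D2:**
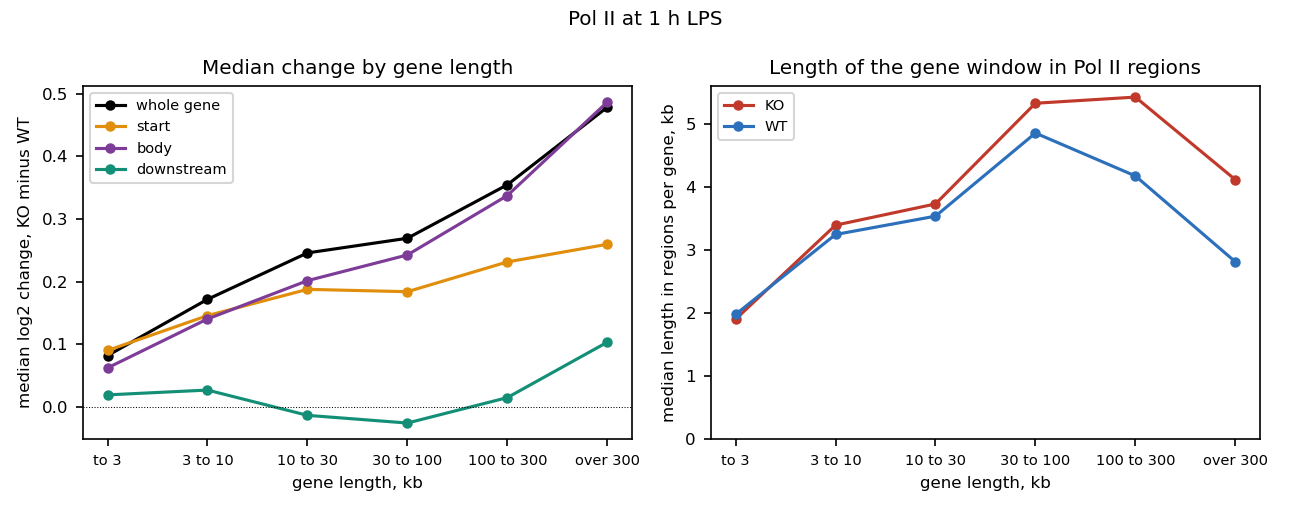
Left, median log2 change in Pol II (KO minus WT) by class of gene length in kb for the whole gene, its start, its body and the stretch past its end; right, median length of the gene window lying in Pol II regions, in kb, for KO and WT. The median over whole genes goes from 0.08 in the shortest class to 0.48 in the longest, where the KO and WT lengths are 4.11 and 2.81 kb.

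The targeted gene was not lower in KO at this time. Nr4a1 (ENSMUSG00000023034, chromosome 15 from 101254269 to 101274795 in GRCm38) had 33.5, 39.0 and 36.6 normalized tags in the KO libraries and 25.5, 23.0 and 30.4 in the WT libraries. All 6 values were low and the genotypes did not overlap, with KO above WT. The log2 change of 0.36 (SE 0.17) had a limma adjusted p of 0.093, and 0.15 with an adjusted p of 0.5 after centring. Without replicate 3 of both genotypes it passed as higher (0.43, limma adjusted p 0.043), as it did with 50 added to the tags (0.18, limma adjusted p 0.049). At 0 h the same gene had 87.8, 76.1 and 70.2 in KO and 189, 188 and 208 in WT, a limma log2 change of -1.22 (adjusted p 1.2e-04). The genotype difference at 1 h differed from that at 0 h by 1.58 (limma adjusted p 2.4e-04). At 18 h it was listed at 0 in the KO libraries and at 7.46, 5.98 and 0 in WT. Tags over Nr4a1 do not show which part of the gene the deletion removed, so at 1 h the locus gives no check of the labels. Of the other NR4A receptors, Nr4a3 is described with the immediate-early genes.

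Marker genes fitted the cell label. All 38 macrophage genes listed (Csf1r, Spi1, Itgam and others) held Pol II, with sums of 72147 to 77058 normalized tags in KO and 80328 to 84171 in WT. All 6 mast cell markers and all 8 erythroid markers were listed at 0 in every library. Of 9 neutrophil markers 7 were at 0 (Elane, Mpo and Ly6g among them), and of 7 fibroblast markers 5 (Col1a1, Col1a2 and Dcn among them), with list sums of at most 19.3. B cell markers summed to 59.5 to 77.8 in KO and 41.4 to 53.0 in WT, with Cd79b and Pax5 at 0, and T cell markers to 167 to 192 and 137 to 143, with Cd3e, Cd3g and Cd8a at 0. Sums of endothelial markers were 76.8 to 113 and 72 to 84.9, with Tek and Tie1 at 0. Dendritic cell markers summed to 1154 to 1303 and 1172 to 1379, nearly all of it from Xcr1, with Siglech and Ccr7 at 0. Osteoclast markers stood at 1032 to 1160 in KO and 540 to 597 in WT, without overlap; Calcr, Ocstamp and Oscar were at 0 in every library, and the sum came from Mmp9, Dcstamp and Acp5.

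Of the 423 genes called higher, 414 had KO and WT values that did not overlap (over all genes tested, 45.8% had KO above WT without overlap), with a median log2 change of 1.22. Of the 151 called lower, 146 did not overlap (10.6% of all genes had KO below WT without overlap), with a median of -1.33. Of the genes tested, 11449 held Pol II in at least 2 libraries of both genotypes and gave 328 of the higher and 123 of the lower calls. Another 494 passed the filter through KO alone and 136 through WT alone, which fixes the direction of their difference, and they gave the remaining 95 and 28. For 55 genes called higher and 19 called lower the other genotype was listed at 0 in all its libraries. The mean of the genotype with more Pol II had a median of 88.1 normalized tags over the genes called higher and 136 over those called lower. The length of the window in regions had a median of 4.29 kb in KO and 1.46 kb in WT for genes called higher, and of 1.63 kb and 4.13 kb for genes called lower. Windows overlap between neighbours, and 175 of the 574 called genes shared theirs with another gene.

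The largest increase was at Fn1 (ENSMUSG00000026193, chromosome 1 from 71585520 to 71653200), which encodes fibronectin, a glycoprotein of the extracellular matrix. It had 710.4, 658 and 589 normalized tags in KO and 0, 8.51 and 0 in WT. WT was listed at 0 except in replicate 2, and on the log2 scale with 10 added the difference was 5.75 (SE 0.23, limma adjusted p 4.5e-12). Regions covered 46.2 kb of the gene in KO and 0.234 kb in WT. Tnfrsf10b (ENSMUSG00000022074, chromosome 14 from 69767472 to 69784411), a death receptor for TRAIL, had 254, 261 and 274 in KO and no region in any WT library (limma adjusted p 1.9e-12). Its H3K27ac at the start was higher as well, by 2.38 (limma adjusted p 1.1e-05), and by 2.41 without KO replicate 1.

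Adra1a (ENSMUSG00000045875, chromosome 14 from 66635251 to 66771168), an alpha-1 adrenergic receptor, had 933, 1092 and 895 in KO and 57.2, 13.8 and 40.8 in WT, a log2 change of 4.50 (SE 0.25, limma adjusted p 4.2e-10). Values lay far apart, and regions covered 66.7 kb in KO and 2.73 kb in WT. Per covered kb the log2 change of Adra1a was -0.02. A region is found only where tags pass a minimum, so the level per covered kb cannot fall below a floor in either genotype. This value therefore cannot show whether the difference was in covered length or in Pol II level. The same limit holds for the values per covered kb of other genes below. Pebp4 (ENSMUSG00000022085, chromosome 14 from 69840420 to 70059918) had 207, 210.2 and 213 against 13.1, 21.9 and 17.0, a log2 change of 3.02 with an SE of 0.10 (limma adjusted p 6.6e-13). Adra1a, Tnfrsf10b and Pebp4 lie within 5 Mb of chromosome 14 (65 to 70 Mb by gene start), where 5 of 22 genes tested were called, all higher (3.5% of all genes were called higher). These 3 genes are among the 5.

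Ifi202b (ENSMUSG00000026535, chromosome 1 from 173962568 to 173982744), a DNA-binding member of the interferon-inducible Ifi200 family, had 1287, 1251 and 1279 in KO and 36.1, 65.1 and 81.8 in WT. Each KO library was above 1200 and each WT library below 100, a log2 change of 4.23 (SE 0.16, limma adjusted p 2.5e-12). In the input libraries, which had no antibody and 1 replicate per genotype, the same gene had 470.4 normalized tags in KO and 225 in WT. When regions found in an input were left out, the change turned to -0.45 (limma adjusted p 0.048). Mtus1 (ENSMUSG00000045636, chromosome 8 from 40990914 to 41133726), a microtubule-associated protein, had 310.0, 370.2 and 309 against 19.5, 12.9 and 18.4 (3.66, limma adjusted p 1.7e-09), with 135 and 44.5 in the inputs and a change of 0.09 per covered kb (limma adjusted p 0.8). Members of the Ifi200 family are near-identical copies in places, and their values are uncertain where the alignment divided tags between copies.

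Pde4d (ENSMUSG00000021699, chromosome 13 from 108449948 to 109953461), a cyclic AMP phosphodiesterase, had 102, 133 and 81.9 in KO and 0, 12.9 and 0 in WT. Arhgap18 (ENSMUSG00000039031), a GTPase-activating protein, had 40.4, 54.7 and 60.3 against no region in WT. Fgf13 (ENSMUSG00000031137), an intracellular member of the fibroblast growth factor family, had 77.6, 69.5 and 54.7 against 5.34, 0 and 0. The starts of Pde4d and Arhgap18 held too little Pol II to be tested, and that of Fgf13 changed by 0.37 (limma adjusted p 0.069). The limma adjusted p over the whole gene was 1.6e-08 for Pde4d, 1.5e-11 for Arhgap18 and 8.2e-10 for Fgf13. The inputs held more than the Pol II libraries at Pde4d (1338 in KO and 1407 in WT) and at Arhgap18 (305 and 286), and had no region at Fgf13. Without input regions Pde4d and Arhgap18 no longer passed, with 0.61 and 0.99 (limma adjusted p 0.21 and 0.077). Faiml (ENSMUSG00000096316) had 137, 126 and 133 against 12.9, 8.05 and 16.6 (log2 change 2.67, limma adjusted p 1.2e-06). Its change per covered kb was 0.06. Without input regions, however, Faiml passed as lower (-1.002, limma adjusted p 0.0059). Olfr112, an olfactory receptor gene, and Trim34b were also among the 12 largest, but 69.3% and 65.6% of their KO values came from regions lying mainly outside their windows.

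The largest decrease was at Trim12a (ENSMUSG00000066258, chromosome 7 from 104299894 to 104315466), a member of the tripartite motif family near the antiviral Trim5. No KO library had a region on it, while the WT values were 341, 341 and 341 normalized tags (limma adjusted p 1.5e-15). H3K27ac at its start was lower too, at 0, 0 and 0 for KO against 713, 687 and 725 for WT. Trim5 (ENSMUSG00000060441, chromosome 7 from 104263386 to 104288094) had none in KO either and 102, 94.6 and 108 in WT (limma adjusted p 2.5e-12). Trim30d (ENSMUSG00000057596, chromosome 7 from 104470014 to 104507849) had 0, 9.44 and 7.97 in KO and 358, 391 and 381 in WT, a log2 change of -4.67 (SE 0.17, limma adjusted p 8.8e-13). These 3 genes lie in 1 cluster on chromosome 7, in which Trim34b went the other way, with 65.3, 68.5 and 65.9 in KO and 0, 7.27 and 1.57 in WT. Trim genes of this cluster resemble each other in sequence, and the inputs listed Trim12a at 0 in KO and 21.6 in WT.

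Cd5l (ENSMUSG00000015854, chromosome 3 from 87357881 to 87371073), a scavenger receptor-like protein secreted by macrophages, had no region in KO and 225, 189 and 222 in WT (limma adjusted p 8.0e-14). Its inputs stood at 6.05 in KO and 62.5 in WT, and the gene was lower in KO at 0 and 18 h too, with log2 changes of -5.39 and -6.20. Fcrl5 (ENSMUSG00000048031), an Fc receptor-like protein and its neighbour on chromosome 3, had 8.83, 30.9 and 21.3 against 616, 248 and 903 (-4.19, limma adjusted p 2.4e-07). Its WT libraries differed widely, and 71.1% of the WT value came from regions lying mainly outside the window. The same held for 94.2% of the WT value of Ifitm6 (16.0, 10.8 and 10.8 against 452, 154 and 84.7) and for 100% of that of Vsig8 (10.3, 8.97 and 11.9 against 125, 111 and 129). With regions counted only when most of their length was inside the window, Ifitm6 changed by 0.19 and Vsig8 by 1.03, so their decreases rest on neighbouring regions.

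Slamf8 (ENSMUSG00000053318, chromosome 1 from 172581758 to 172590568), a receptor of the SLAM family in myeloid cells, had 40.7, 29.985 and 36.6 in KO and 403, 396 and 388 in WT. The spread within a genotype was small beside the gap, with a log2 change of -3.15 (SE 0.09, limma adjusted p 8.0e-14). Col18a1 (ENSMUSG00000001435, chromosome 10 from 77052178 to 77166548), the collagen from which endostatin is cut, had 36.6, 26.3 and 32.6 against 402, 406 and 355 (-3.26, limma adjusted p 1.0e-08). Regions covered 1.98 kb of Col18a1 in KO and 26.5 kb in WT, and per covered kb the change was 0.07. Cxcl9 (ENSMUSG00000029417, chromosome 5 from 92321347 to 92328079), a chemokine for activated T cells, likewise had none in KO and 44.0, 70.9 and 56.7 in WT (limma adjusted p 2.4e-10). Capn12 (ENSMUSG00000054083), a calpain protease, showed the same pattern with 36.8, 72.1 and 51.7 in WT (limma adjusted p 7.7e-10), and Ifi213 (ENSMUSG00000073491), of the Ifi200 family, with 181, 173 and 144 (limma adjusted p 8.0e-14).

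**Figure D3:**
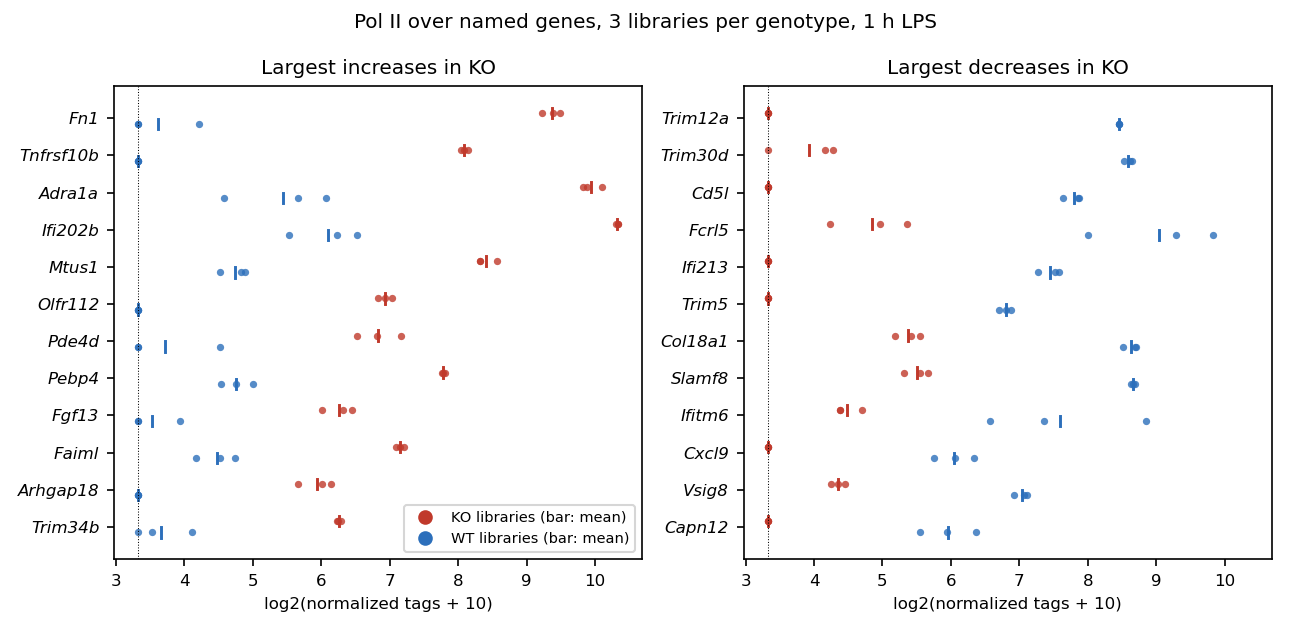
Pol II over the 12 genes with the largest increase (left) and the 12 with the largest decrease (right) in KO at 1 h, as log2 of normalized tags plus 10, with each point 1 library and each bar the mean of 3 log2 values. The dotted line marks a gene with no region found. The 24 genes were chosen among those whose KO and WT values do not overlap.

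Promoters of the 4 of these genes that held an AP-1 motif are shown, because AP-1 factors are among the regulators the study is about. The motif was searched as TGAGTCA or TGACTCA, which are each other's reverse complement, and that of Nur77 (the NBRE) as AAAGGTCA or, on the other strand, TGACCTTT. Sequences are those of RefSeq on GRCm38.p6, 250 bases before to 50 after the gene start, 5′ to 3′ on the strand of the gene, with the motif in capitals. Trim34b (chr7:104329221-104329520, plus strand) was higher in KO, and Slamf8 (chr1:172590519-172590818, minus strand), Cxcl9 (chr5:92328030-92328329, minus strand) and Capn12 (chr7:28881406-28881705, plus strand) were lower.
Trim34b: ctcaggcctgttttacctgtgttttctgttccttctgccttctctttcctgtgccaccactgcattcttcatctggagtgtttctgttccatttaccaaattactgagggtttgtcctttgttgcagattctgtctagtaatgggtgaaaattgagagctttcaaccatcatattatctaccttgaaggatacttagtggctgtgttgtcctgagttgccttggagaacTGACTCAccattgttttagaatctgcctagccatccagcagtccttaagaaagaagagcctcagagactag
Slamf8: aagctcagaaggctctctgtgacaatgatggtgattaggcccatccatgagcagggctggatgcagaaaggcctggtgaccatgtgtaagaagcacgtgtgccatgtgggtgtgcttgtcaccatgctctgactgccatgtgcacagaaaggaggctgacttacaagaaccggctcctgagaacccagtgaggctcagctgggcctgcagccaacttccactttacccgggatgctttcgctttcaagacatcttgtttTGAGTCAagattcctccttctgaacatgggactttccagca
Cxcl9: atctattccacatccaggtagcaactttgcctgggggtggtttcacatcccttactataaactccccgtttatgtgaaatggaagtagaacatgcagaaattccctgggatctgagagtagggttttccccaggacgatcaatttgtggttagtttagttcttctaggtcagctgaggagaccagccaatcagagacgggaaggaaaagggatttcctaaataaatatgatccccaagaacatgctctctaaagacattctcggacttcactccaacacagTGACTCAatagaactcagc
Capn12: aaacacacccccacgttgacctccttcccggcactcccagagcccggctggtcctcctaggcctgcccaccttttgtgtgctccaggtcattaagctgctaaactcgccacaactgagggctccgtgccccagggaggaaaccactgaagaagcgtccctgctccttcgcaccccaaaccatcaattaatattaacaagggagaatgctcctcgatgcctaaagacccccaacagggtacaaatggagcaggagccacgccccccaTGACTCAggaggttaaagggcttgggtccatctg

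The first base of the motif lay 21 bases before the start of Trim34b, and 9, 31 and 16 bases after that of Slamf8, Cxcl9 and Capn12. In all, 15 of the 24 genes with the largest changes were matched to a promoter, and none of the 15 held an NBRE. Of the genes called higher, 304 of 423 had a promoter sequence, and 25 of those (8.22%) held the AP-1 motif and 4 (1.32%) the NBRE. Of the genes called lower, 122 of 151 had one, with 11 (9.02%) and 1 (0.82%). Over all genes tested the shares were 3.52% and 0.944% of 9426 promoters, and over all 16504 protein-coding genes with a promoter sequence 4.51% and 1.28%. These are counts of letters in a window of 300 bases, and no test was made of them.

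Genes with much Pol II changed by less on the log2 scale but by more tags. Among genes that passed both as deposited and centred, without overlap, the largest gains in normalized tags were at Abca1, Mid1, Igf1, Gm47283, Osbpl8 and Ano6. Abca1 (ENSMUSG00000015243, chromosome 4 from 53030787 to 53159895), the transporter that passes cholesterol to apolipoproteins, had 18695, 18329 and 18445 in KO and 12067, 12019 and 12034 in WT. The libraries of a genotype lay within a few percent of each other, and the log2 change was 0.62 (SE 0.06, limma adjusted p 2.4e-07) as deposited and 0.34 centred. Igf1 (ENSMUSG00000020053, chromosome 10 from 87858265 to 87937042), insulin-like growth factor 1, had 6563, 6239.7 and 6289 against 2816, 2714 and 2798 (1.19, limma adjusted p 9.9e-12). Its start changed by 0.81 (limma adjusted p 0.0068), and its H3K27ac by 0.46 (limma adjusted p 0.0065).

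Mid1 on the X chromosome, which encodes a ubiquitin ligase that binds microtubules, had 5954, 5892 and 5986 against 2162, 2042 and 2268 (1.46, limma adjusted p 4.0e-12). Gm47283, a gene model on the Y chromosome, had 4314, 4317 and 4481 against 1288, 1228 and 1261 (1.79, limma adjusted p 1.8e-11). The inputs moved the same way for both, with 565 in KO and 255 in WT at Mid1 and 878 and 179 at Gm47283, and the part of this in their Pol II difference was not tested. Osbpl8, a lipid transfer protein, rose by 0.45 and Ano6, a phospholipid scramblase, by 0.67 (limma adjusted p 4.4e-05 and 3.5e-06).

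The largest losses in tags were at Acod1, Adgre1, Mndal, Fam20c, Rassf4 and Sdc4. Adgre1 (ENSMUSG00000004730, chromosome 17 from 57358691 to 57483527), which encodes the macrophage antigen F4/80, had 13349, 13160.1 and 13009 in KO and 22677, 21922 and 22655 in WT. The highest KO library lay far below the lowest WT library, and the log2 change was -0.77 (SE 0.06, limma adjusted p 5.9e-08) and -1.04 centred. Its start changed less, by -0.25 (limma adjusted p 0.0092). Mndal, of the Ifi200 family, had 9202, 9023 and 8805 against 17541, 16468 and 17145 (-0.92, limma adjusted p 2.0e-09). Fam20c (ENSMUSG00000025854, chromosome 5 from 138754514 to 138810077), the kinase of secreted proteins, had 4889, 4530.2 and 4640.2 against 12349.5, 12981 and 12559.7, with -1.43 over the gene and -1.34 at its start (limma adjusted p 7.6e-13 and 4.7e-09). Rassf4 had a log2 change of -0.60 (limma adjusted p 2.4e-07). Acod1, which makes itaconate and is among the genes LPS induces most, had 15837, 13888 and 14692 against 23308, 24772 and 24682. Its log2 change of -0.71 passed as deposited (limma adjusted p 0.043), but leaving out any single library raised the adjusted p to between 0.066 and 0.11. Sdc4, a syndecan, had 34843, 29692 and 31498 against 36832, 37771 and 39785, a log2 change of -0.25 (limma adjusted p 0.0029) that became 0.00 under quantile scaling. Without replicate 2 or replicate 3 of both genotypes the limma adjusted p of Sdc4 was 0.092 and 0.08.

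Gene lists were read against the background of all genes tested, of which 38.1% were higher and 7.53% lower. Of the 18 lists read, the interferon-response genes had the lowest median. Of 46 tested, 35 were lower in KO, 2 higher and 9 did not pass, with a median log2 change of -0.55. After centring 41 were lower and 1 higher. In 10 of the 46 the fall was over 1, and the antiviral effectors and regulators Mx1, Usp18, Oas2, Irf7 and Ifit2 were all among the 35. Iigp1 (ENSMUSG00000054072, chromosome 18 from 60376027 to 60392634), an immunity-related GTPase, had 30.8, 47.6 and 36.2 in KO and 213, 187 and 277 in WT. No KO value reached a WT value, and the log2 change was -2.29 (SE 0.15, limma adjusted p 2.6e-09), with -0.82 at the start. Trim30d and Ifi213 (values above) fell most. The 2 members higher were Ifi202b and Ifih1, the sensor MDA5, whose 19279.9, 17483 and 17662 against 14778, 14864 and 15233 gave 0.28 (limma adjusted p 0.025) as deposited and 0.00 centred, and a limma adjusted p of 0.095, 0.059 and 0.06 without KO replicate 1, WT replicate 1 and WT replicate 2. Leaving out 1 library or 1 replicate number left 30 to 36 members lower.

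Chemokines were also on the lower side. Of 16 CC and CXC chemokine genes tested, 10 were lower, none was higher and 6 did not pass, with a median of -0.41, and 15 were lower after centring. Ccl2 (ENSMUSG00000035385, chromosome 11 from 82035571 to 82037453), which attracts monocytes, had 3442, 3187 and 2944 in KO and 4972, 5197 and 4898 in WT (-0.66, SE 0.14, limma adjusted p 0.0016). Ccl22 (ENSMUSG00000031779), a ligand of CCR4, had 508, 440.4 and 438 against 720.3, 733 and 764 (-0.67, limma adjusted p 1.1e-04). In both genes every KO library was below every WT library. Cxcl9 changed most (values above). The count depended on the libraries: 4 members passed as lower without replicate 2 of both genotypes and 6 without replicate 3, over all leave-outs 4 to 10 did, and 1 passed as higher without WT replicate 1.

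Of 33 cytokines and inflammatory enzymes 10 were lower and 7 higher, with a median of -0.12. After centring 17 were lower and 4 higher (median -0.39). Nos2 (ENSMUSG00000020826, chromosome 11 from 78920787 to 78960254), the inducible nitric oxide synthase, had 93.6, 92.2 and 67.6 in KO and 548, 498 and 594 in WT. The log2 change was -2.57 (SE 0.21, limma adjusted p 5.1e-08), whereas its start changed by -0.20 (limma adjusted p 0.14). Regions covered 6.23 kb of Nos2 in KO and 31.1 kb in WT. Il12b (ENSMUSG00000004296), a subunit of interleukins 12 and 23, had 2599, 2106 and 2204 against 4096, 4226 and 4314 (-0.87, limma adjusted p 3.8e-06), with nearly the same change at its start (-0.84). Ptgs2 (ENSMUSG00000032487), the inducible cyclooxygenase, had 801, 686 and 675 against 1304, 1355 and 1368 (-0.89, limma adjusted p 0.001). For these 3 genes no KO library reached a WT library.

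The 7 members higher in KO were F3, Vegfa, Thbs1, Hbegf, Sphk1, F10 and Il1rn. F3 (ENSMUSG00000028128, chromosome 3 from 121723537 to 121735048), tissue factor of blood clotting, had 1023, 908 and 925 in KO and 327, 329 and 354 in WT (1.47, limma adjusted p 2.1e-05), and it was also higher at 0 h (1.67). Vegfa, a growth factor for blood vessels, had 250.4, 229 and 228 against 126, 96.6 and 146 (0.90, limma adjusted p 1.7e-06). Its start changed by -0.19 and its level per covered kb by -0.36, so the higher total came with 9.03 kb in regions in KO against 3.59 kb in WT. Hbegf, an EGF receptor ligand, had 441, 429.8 and 402 against 234, 257 and 244 (0.77, limma adjusted p 1.7e-04), but without input regions it passed as lower (-1.14, limma adjusted p 0.0025). Il1b, interleukin 1 beta, did not pass, with 7259, 6022 and 6209 against 7298, 7538 and 7676 (-0.21, limma adjusted p 0.17), and was lower after centring (-0.49, adjusted p 0.012). Of 6 NF-kB subunit genes none passed as deposited (median 0.04), and 4 were lower after centring.

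AP-1 genes were mixed. Of 15 tested, 4 were higher (Jun, Fos, Fosb and Junb) and 2 lower (Jdp2 and Atf3), with a median of 0.11, and after centring 1 was higher and 5 lower. Jun (ENSMUSG00000052684, chromosome 4 from 95049034 to 95052222) had 346, 369 and 367 in KO and 207, 220.0 and 224 in WT, with 0.71 (SE 0.07, limma adjusted p 6.0e-07) as deposited and 0.44 (adjusted p 4.6e-05) centred. It was the member that stayed higher after centring, and at 0 and 18 h it changed by -0.18 and -0.37. Fos had 561, 514 and 499 against 412, 382 and 384 (0.41, limma adjusted p 0.008) and did not pass after centring (0.14, adjusted p 0.38) or without replicate 1 (0.39, adjusted p 0.081). Jdp2 (ENSMUSG00000034271, chromosome 12 from 85599027 to 85639878), a repressor of the AP-1 family, had 8353, 7715 and 7873 against 11752, 11635 and 12013, a log2 change of -0.56 (limma adjusted p 4.2e-05) with much the same change at its start (-0.54). Atf3 had 7656, 7168 and 7219 against 7966, 8110.3 and 8606 (-0.16, limma adjusted p 0.017), and without KO replicate 2, KO replicate 3 or WT replicate 3 its adjusted p was 0.066, 0.059 and 0.082. Fosb, at 34.5, 44.7 and 37.3 against 27.6, 32.0 and 21.7 (0.40, limma adjusted p 0.029), lost its call without KO replicate 2 (0.12) or WT replicate 3 (0.13).

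Immediate-early regulators other than AP-1 were mostly higher as deposited, 13 of 19 with 2 lower and a median of 0.35. After centring 5 were higher and 3 lower. Egr3 (ENSMUSG00000033730, chromosome 14 from 70077203 to 70082614), a zinc finger factor, had 69.2, 113 and 71.8 in KO and 14.8, 9.64 and 0 in WT, and Egr1 (ENSMUSG00000038418) had 297, 266 and 283 against 184, 175 and 160.3. Egr2 (ENSMUSG00000037868, chromosome 10 from 67535475 to 67542188) went the other way, with 643, 603 and 631 against 988, 1095 and 999. The 3 log2 changes were 2.45, 0.67 and -0.71 (limma adjusted p 8.7e-07, 3.7e-04 and 1.7e-05), and none of the 3 genes had overlapping groups. Nr4a3 (ENSMUSG00000028341, chromosome 4 from 48045153 to 48086447), a receptor related to Nur77, had 128, 146 and 131 against 37.7, 56.0 and 66.8 (1.22, limma adjusted p 9.0e-04). With 1 instead of 10 added to the tags its limma adjusted p was 0.15, and without input regions Nr4a3 passed as lower (-2.23, limma adjusted p 5.7e-07). Ier2, a short nuclear response gene, had 178, 170.1 and 179 against 280.5, 282 and 262 (-0.62, limma adjusted p 0.0027). Values of Egr2 and Ier2, like those of Actb, Ccl2, Il1b, Dusp2 and Rplp0, came wholly from regions that lay mostly outside these short windows. At 0 h the means of Egr1 were 917 in KO and 819 in WT, and those of Egr3 306 and 232, above their 1 h values. So were those of Jun (856 and 969) and Fos (1588 and 1519). The means of Nr4a3 at 0 h (42.4 and 34.4) lay below its 1 h values, as did that of Egr2 in WT (860) but not in KO (1184). KO above WT at 1 h thus does not by itself show a stronger induction by LPS.

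Among feedback regulators, which restrain kinase, NF-kB and cytokine signalling, 12 of 30 were higher and 5 lower (median 0.03), and 5 were higher and 17 lower after centring. Spry2 (ENSMUSG00000022114), an inhibitor of growth factor signalling to ERK, had 357, 352 and 375 in KO and 196, 182 and 193 in WT (0.89, limma adjusted p 7.7e-07). Dusp6, a phosphatase of ERK, had 204, 142 and 156 against 93.7, 66.1 and 83.4 (0.96, limma adjusted p 6.9e-05), with 55% and 95% of its values from regions mostly outside the window. Dusp2, a nuclear MAP kinase phosphatase, had 1217, 1190.3 and 1197 against 1648, 1623 and 1769 (-0.48, limma adjusted p 9.5e-05). Tnip3, a partner of the NF-kB inhibitor A20, had 8092, 7603 and 7780.5 against 9211, 10028 and 10094 (-0.32, limma adjusted p 4.8e-04).

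**Figure D4:**
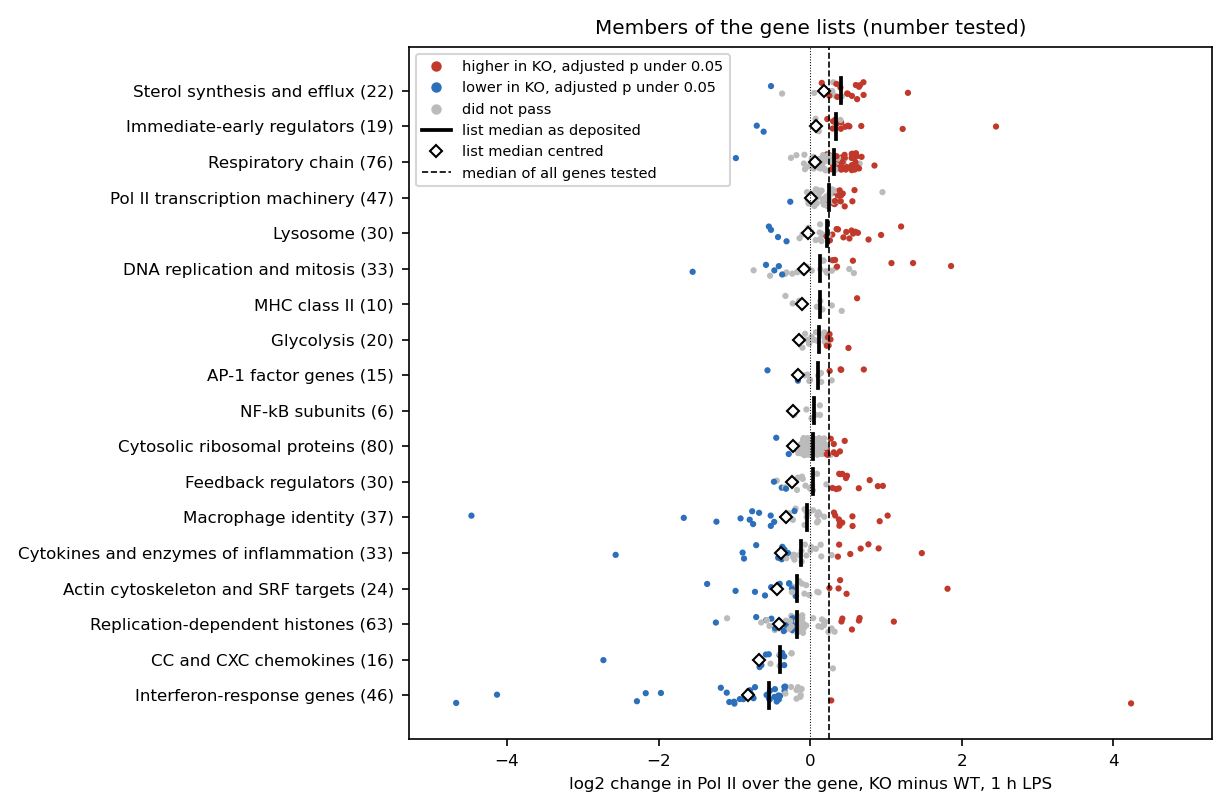
Log2 change in Pol II (KO minus WT) at 1 h for every tested member of 18 gene lists, with red and blue points past an adjusted p of 0.05, black bars at the list medians as deposited and open diamonds at the centred medians. The dashed line is the median of all genes tested (0.24); interferon-response genes (-0.55) and chemokines (-0.41) lie farthest to its left.

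Genes of macrophage identity changed in both directions, with 12 of 37 lower, 10 higher and a median of -0.05 (18 lower and 5 higher centred). Fcgr2b (ENSMUSG00000026656, chromosome 1 from 170958617 to 170976547), the inhibitory Fc gamma receptor, had 261, 259 and 236 in KO and 831, 793 and 846 in WT (-1.67, SE 0.09, limma adjusted p 1.6e-10). Its start changed by -1.43 and its H3K27ac by -1.18. Irf8 (ENSMUSG00000041515, chromosome 8 from 120736358 to 120756694), a lineage factor of monocytes that also acts in interferon responses, had 534, 509 and 485 against 1195, 1167 and 1282 (-1.24, limma adjusted p 1.4e-10). At 0 and 18 h Irf8 changed by -0.03 and 0.02, so the lower level was seen at 1 h. Without input regions Irf8 passed as higher (1.41, limma adjusted p 0.026), and Adgre1, Mndal, Abcg1, Ano6, Cebpa and Atp6v1h turned direction without passing. Cd36 (ENSMUSG00000002944), a scavenger receptor for lipids, had 2513, 2474 and 2496 against 1285, 1083 and 1319 (1.02, limma adjusted p 4.3e-09). Mrc1 (ENSMUSG00000026712), the mannose receptor, had 2711, 2632 and 2597 against 1449, 1312 and 1438 (0.92, limma adjusted p 1.9e-08), with 96.3 kb in regions in KO and 69.3 kb in WT, but without input regions it passed as lower (-3.09, limma adjusted p 6.2e-07).

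Of 30 lysosome genes 15 were higher and 4 lower (median 0.23), 7 and 9 after centring. Atp6v0d2 (ENSMUSG00000028238, chromosome 4 from 19876841 to 19922605), a subunit of the proton pump that osteoclasts also use, had 2070.2, 2066 and 1996 in KO and 909, 938 and 813 in WT (1.198, limma adjusted p 4.7e-10). Another pump subunit, Atp6v1h, had 1303, 1283 and 1254 against 780.5, 599.6 and 629 (0.93, limma adjusted p 1.2e-06). The cathepsin genes Ctss and Ctsk were lower, with 1614, 1509.6 and 1586 against 2192, 2240.4 and 2326 for Ctss (-0.52, limma adjusted p 2.3e-06) and 241, 234 and 242 against 355, 331 and 376 for its neighbour Ctsk (-0.55, limma adjusted p 4.3e-05). The higher sum of osteoclast markers in KO (above) moved with Atp6v0d2 and against Ctsk, and its part was not tested.

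Sterol genes had the highest median of the 18 lists, 0.41. Of 22 genes of sterol synthesis, lipid supply and efflux, 15 were higher and 1 lower, and 9 were higher and 3 lower after centring. Besides Abca1, Cyp51 (ENSMUSG00000001467), a demethylase of cholesterol synthesis, had 46.4, 41.7 and 56.3 in KO and 26.3, 7.36 and 11 in WT (1.29, limma adjusted p 1.3e-04), both low. The member lower in KO was the second efflux transporter Abcg1 (ENSMUSG00000024030, chromosome 17 from 31057675 to 31117988), with 1103, 1153 and 1072 against 1607, 1582 and 1586 (-0.52, limma adjusted p 8.6e-06). Without input regions the change of Abcg1 was 1.68 and did not pass (limma adjusted p 0.12).

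Of 24 genes of the actin cytoskeleton and targets of SRF (serum response factor), 10 were lower and 5 higher (median -0.17), and 17 were lower and 1 higher after centring. Actb (ENSMUSG00000029580, chromosome 5 from 142903115 to 142906754), beta actin, had 2537, 2265 and 2349.8 in KO and 4709, 4619 and 4848 in WT (-0.99, SE 0.07, limma adjusted p 4.2e-09). It is often taken as a reference gene, yet each KO library was far below each WT library at 1 h, and at 0 h the change was -0.13 (adjusted p 0.32). Lima1 (ENSMUSG00000023022), which bundles actin, was higher, with 837, 853 and 832 against 240.0, 234 and 224 (1.81, limma adjusted p 1.7e-09). Tagln2, at 529, 529 and 539.8 against 1289.8, 1398 and 1469, had a log2 change of -1.36, but all of its WT value came from regions mostly outside its window, and with those left out the change was 5.76. Of the other reference genes, Rplp0 had 261, 259 and 264 against 228, 225 and 233, Hprt 49.6, 52.5 and 42.2 against 32.9, 33.0 and 54.0 and Gapdh 404, 455 and 434 against 499.9, 400.3 and 497, and none of the 3 passed as deposited (limma adjusted p 0.35, 0.17 and 0.3). Rplp0 turned to -0.08 and Gapdh passed as lower (-0.37, adjusted p 6.6e-04) after centring, and Hprt passed as higher without WT replicate 3 (0.43, adjusted p 0.0088).

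Housekeeping lists were set beside the 38.1% of all genes that were higher and the 7.53% that were lower. Of 76 respiratory chain genes 38 were higher and 1 lower (median 0.32), and centring left 9 higher and 8 lower. Sdha, the flavoprotein of complex II, had 266, 287 and 267 in KO and 158, 132 and 153 in WT (0.85, limma adjusted p 4.3e-06), and -0.03 per covered kb. Of 47 genes of the Pol II machinery 16 were higher and 1 lower (median 0.25), and 1 and 6 after centring. Of 20 glycolysis genes 6 were higher and none lower (median 0.11), and 1 and 6 after centring. Cytosolic ribosomal protein genes had a median of 0.04, with 9 of 80 higher and 3 lower, and 41 lower and none higher after centring. Of 33 genes of DNA replication and mitosis 7 were higher and 5 lower (median 0.13; 3 and 12 centred), and of 10 MHC class II genes 1 was higher and none lower (median 0.13), against none and 3 after centring. Kif11, a mitotic kinesin, had 71.5, 131 and 122 against 19.0, 23.1 and 23.0 (1.86, limma adjusted p 1.0e-05). The inputs held more at Kif11 (188 in KO and 186 in WT), and with regions mostly inside the window it no longer passed (1.75, adjusted p 0.12). Rrm2, a subunit of ribonucleotide reductase, had no region in KO and 13.1, 28.7 and 18.1 in WT (limma adjusted p 1.7e-05). Replication-dependent histone genes had 6 of 63 higher and 16 lower (median -0.17), or 3 and 38 after centring (median -0.41), and as short copies close together they share regions and sequence.

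Called genes were unevenly spread along chromosomes. On chromosome 1 between 170 and 175 Mb (bins of 5 Mb by gene start), 28 of 76 genes tested were called, 9 higher and 19 lower, against 4.75% of all genes. The bin holds Fcgr2b, Slamf8, Vsig8, Tagln2 and the Ifi200 cluster, in which 13 genes were tested and 8 were called lower and 2 higher. No other bin had more than 10 calls. The next was chromosome 11 between 45 and 50 Mb with 10 of 26, where Tgtp1 and Tgtp2 (interferon-inducible GTPases) lie.

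The other times were set beside 1 h, with no library in common. At 0 h, 13230 genes were tested and 552 were higher in KO (4.17%) and 359 lower (2.71%), with a median of 0.04. At 18 h, 12806 were tested and 967 were higher (7.55%) and 1712 lower (13.4%), with a median of -0.10. Centring turned the majority at 18 h, to 1826 higher and 1080 lower. Leaving out 1 replicate number gave 220 to 315 higher and 175 to 334 lower at 0 h, and 568 to 672 and 778 to 1124 at 18 h. Of the 423 genes called higher at 1 h, 35 were also higher at both other times at an adjusted p under 0.05, 48 at 0 h alone, 44 at 18 h alone and 296 at neither. Of the 151 called lower, 21 were lower at both, 21 at 0 h alone, 15 at 18 h alone and 94 at neither. Some passed the other way at 18 h, 53 of the 376 called higher that were tested there and 14 of the 137 called lower. The difference between 1 and 0 h was tested directly. It passed in the same direction for 319 of the 423 (14.2% of all 13426 genes tested passed as higher) and 117 of the 151 (4.22% passed as lower). Over all genes, the 1905 higher and 567 lower of this test became 369 and 263 without replicate 2 of every group and 816 and 313 without replicate 3. Both tests use the 1 h libraries that chose these genes, so the counts are a description. For 1 against 18 h, 33.3% of 13143 genes passed as higher and 6.79% as lower, and the 4372 higher became 2313 without replicate 2 and 2579 without replicate 3. After centring more genes passed as lower than as higher in both tests, with 968 higher and 1661 lower against 0 h and 1469 and 2445 against 18 h.

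Genes called at 1 h with the same direction at both other times included Ifi202b, Cd5l, Trim12a and Trim5. For Trim12a the log2 changes were -3.40 at 0 h and -7.13 at 18 h, and for Ifi202b they were 5.56 and 8.51. Trim12a in KO and Ifi202b in WT were listed at 0 in every library at both times, so the size of these changes depends on the 10 added. Igf1 was unlike these. Its change was -0.02 at 0 h, 1.19 at 1 h and -1.70 at 18 h, and 1 h differed from 0 h by 1.22 and from 18 h by 2.89 (limma adjusted p 1.5e-08 and 2.2e-14). At 0 h Pde4d stood at 284, 272 and 252 for KO against 269, 287 and 255 for WT. Nos2 changed by -0.19 at 0 h and 0.59 at 18 h. Adgre1 changed by 0.04 at 0 h, and its 1 h difference minus that at 0 h was -0.81 (limma adjusted p 1.4e-05). At 18 h Adgre1 was lower in KO too, by -0.25 (limma adjusted p 0.0095), and by -0.11 centred (adjusted p 0.15).

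The interferon and chemokine lists were also read at the other times, beside all genes, of which 4.17% were higher and 2.71% lower at 0 h, and 7.55% and 13.4% at 18 h. Of the interferon list at 0 h, 14 of 44 tested members were lower and 2 higher (median -0.20), and at 18 h 2 of 46 were lower and 13 higher (median 0.16). The test of 1 h against 0 h passed for 17 of 46 members in the lower and 4 in the higher direction, against 4.22% and 14.2% of all genes. Chemokines had 7 of 12 lower at 0 h (median -0.56), and 2 of 11 higher and 2 lower at 18 h (median -0.07). Of 16 chemokines, 4 passed the test of 1 h against 0 h in each direction.

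**Figure D5:**
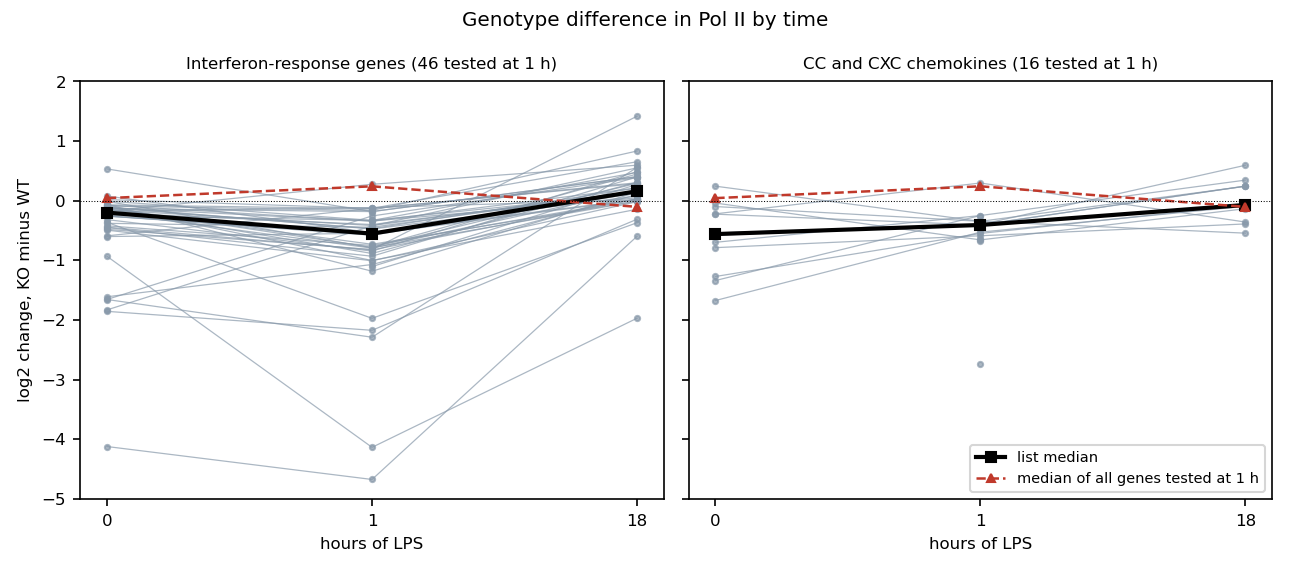
Log2 change in Pol II (KO minus WT) at 0, 1 and 18 h of LPS for each member of the interferon-response list (left) and the chemokine list (right), with list medians in black and the median of all genes tested at 1 h in red. The interferon median goes from -0.20 to -0.55 to 0.16; Ifi202b (5.56, 4.23 and 8.51) lies above the axis, and Cxcl9 was tested at 1 h only.

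H3K27ac within 2500 bp of gene starts was read from other libraries of the same genotypes and time. With the library labelled KO replicate 1, 1297 of 11829 genes were higher (11%) and 859 lower (7.26%). Without it, 3219 of 11786 were higher (27.3%) and 2173 lower (18.4%). The counts fell to 215 and 225 without KO replicate 2, to 258 and 255 without KO replicate 3, and to 472 to 648 higher and 390 to 416 lower without 1 WT library. They were 7 and 22 without replicate 2 of both genotypes, 8 and 16 without replicate 3, and 3853 and 2675 without replicate 1. Of genes called higher in Pol II, 322 were tested, and 113 were higher in H3K27ac (35.1%) and 9 lower, or 142 (44.1%) and 44 without that library. Of those called lower, 105 were tested, and 40 were lower (38.1%) and 1 higher, or 43 (41%) and 10 without it.

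Interferon-response genes were lower in H3K27ac as well, with 32 of 46 lower and 1 higher (median -0.59), and 41 and 1 without the library labelled KO replicate 1 (median -0.74). For Trim30d the KO libraries had 26.2, 6.79 and 5.57 normalized tags of H3K27ac against 374, 366 and 351 for WT, and for Ifi202b 188, 209 and 189.9 against 0, 13.2 and 7.42. At both genes the library labelled KO replicate 1 lay with the other KO libraries, and the direction was that of Pol II. Chemokines had 4 of 15 lower and none higher (median -0.38), or 7 lower without that library. Lysosome genes had 12 of 29 higher and none lower (median 0.38), or 20 and 2. Replication-dependent histone genes went apart in the 2 readouts, with 10 of 63 higher and none lower in H3K27ac (51 and none without that library). Irf8 and Nos2, lower in Pol II, changed by 0.05 and -0.08 in H3K27ac (limma adjusted p 0.86 and 0.89), and by 0.39 and 0.47 without it (adjusted p 3.7e-04 and 0.15). Without replicate 2 or replicate 3 of both genotypes, 22 and 16 genes in all passed as lower in H3K27ac, and 7 and 8 as higher. The counts of the interferon, lysosome and histone lists are therefore not reached there.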

How the data were processed

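ChIP was done on bone marrow-derived macrophages with an antibody to Pol II; its catalogue number differs between the labels and the article. Per the labels and methods, reads went through Skewer and HISAT2 2.1.0 (mm10), and the authors used HOMER to find broad regions with no input as control. HOMER's windows of 500 bp, per the file headers, were kept when passing a Poisson p of 0.001 and joined within 1000 bp. The deposited values are signal per region, tags scaled to 10 M tags of the library; whole counts could not be recovered, so no count test was used. Windows needed 13 to 17 tags, and a value of 0 is a region not found.

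Signal was summed over 21897 protein-coding genes (GENCODE vM21, GRCm38, 54 entries with duplicate symbols left out) with 500 bp on each side, over starts (500 bp on each side), bodies of genes over 1000 bp, 500 to 3000 bp past the end, and, for H3K27ac, 2500 bp around the start. limma 3.58.1 (R 4.3.3, with trend) was fitted to log2(signal + 10) of all 18 Pol II libraries as 6 group means, for genes above 0 in at least 2 libraries of KO or WT at that time, with Benjamini-Hochberg adjustment over all genes tested. Centring scaled each library to the mean of the library medians, separately for each time and each window. Library summaries were compared by exact two-sided permutation tests. On simulated data for this comparison (11024 genes, 200 changed) limma recovered 55% of changes of 0.5 and 95% of changes of 1, with 14 false calls, none over 1.

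Named genes were Nr4a1, the 12 largest increases and decreases among called genes without overlap and with a mean of at least 50 (gene models named Gm or Rik left out), the 6 largest differences in tags per direction among genes passing as deposited and centred, up to 3 list members per direction, and 4 reference genes. The comparison, lists and rules were chosen with earlier results of these data known, and 5 list symbols matched no gene. Some genes that the rules name are not reported here. Alternatives varied the constant added, the filter, the scaling, the window, covered length, input regions, shared windows, the replicate block and libraries left out. Counting only regions mostly inside the gene, and a density floor without WT replicate 2, were chosen after seeing the data.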

Additional observations from a re-analysis of the deposited data

Results flagged for a closer look

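The genotype difference at 1 h was tested against that at 0 h and at 18 h directly in limma for the 37 genes named for their change at 1 h, and 19 results are given here. For 18 genes it differed from both other times in the same direction, by over 1 on the log2 scale each time, and further genes passed both tests with smaller differences. For Nr4a1, the targeted gene, the difference at 1 h minus that at 0 h was 1.58, and that at 1 h minus 18 h was 0.85. The values below are again log2 differences at 1 h minus those at 0 h.

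Above the 0 h difference lay Pde4d (3.11), Adra1a (2.8), Arhgap18 (2.72), Tnfrsf10b (2.45), Pebp4 (2.24), Mtus1 (2.14), Olfr112 (1.32), Igf1 (1.22) and Trim34b (1.08). At Pde4d and Arhgap18 the inputs held more than the Pol II libraries at 1 h.

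Below it lay Fcrl5 (-4.05), Ifi213 (-3.2), Cxcl9 (-2.73), Capn12 (-2.71), Col18a1 (-2.65), Slamf8 (-1.6), Mndal (-1.53), Ifi202b (-1.33) and Vsig8 (-1.27). Cxcl9 was listed at 0 in every library at 0 and 18 h, so its value repeats its difference at 1 h. Ifi202b was higher in KO at each time. Its WT libraries at 0 h were all listed at 0, so its difference at 0 h depended on the 10 added, and the negative value does not show a smaller excess at 1 h. All 19 comparisons used the 1 h libraries by which the genes had been chosen.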

How the results depend on the processing

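Depth per gene is unknown beyond the tags per library, regions under 13 to 17 tags per window read as 0, and fragment length, covered length and genotype moved together at 1 h. A limit of every count here is therefore that a gene may gain or lose a whole region near that minimum. Of 4325 alternative values, 419 that answer a comparison and 3347 of single genes and lists were rated as unchanged. For a single gene this meant the same direction and side of the threshold. Counts had to stay within a fixed factor of the main value, and medians within 0.051. Library summaries had to keep their sign and, with replicates left out, stay within the spread between libraries. The cause of the others was not tested.

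The counts of called genes (423 higher, 151 lower) depended on the constant added, with 939 higher at 1 and 120 higher and 63 lower at 50, where the median was 0.15. With a mean of at least 50 they were 227 and 96. Centring gave 244 and 234, with 2060 and 2601 at the adjusted p alone and a median of 0.0057, and quantile scaling gave 237 lower, 1990 and 1691 at the adjusted p alone, and a median of 0.026. At starts they were 72 and 32 (2066 and 346 at the adjusted p alone, median 0.18), and per covered kb 155 and 53 (2253 and 532). Leaving out input regions gave 250 and 317 (567 and 419, median 0.086), and leaving out shared windows gave 82 lower (2849 and 502). After centring, the calls were 610 and 353 with 1 added, 61 and 116 with 50 added, and 136 higher among genes above 0 in all 6 libraries.

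At starts the median was 0.24 with 1 added, and centring gave 658 higher, 862 lower and a median of 0.026. Centred bodies gave 1817, 2137 and 0.012. Centring gave 968 and 1661 for 1 against 0 h, 1469 and 2445 for 1 against 18 h, and 1826 and 1080 at 18 h. With a floor on density, KO had fewer regions than WT, a difference of -4010.

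Centring turned Hk2 to -0.0076 and Rplp0 to -0.082, and quantile scaling Rplp0 to -0.017 and Hprt to -0.038. At starts Vegfa was -0.19, Med26 0.13 and Tyms 0.089. Per covered kb Adra1a was -0.020, Col18a1 0.074, Vegfa -0.36, Vcl -0.12 and Sdha -0.032. Without input regions the direction turned for Ifi202b (-0.45), Faiml (-1.002), Vsig8 (1.03), Adgre1 (0.20), Mndal (1.12), Ano6 (-0.76), Nr4a3 (-2.23), Hbegf (-1.14), Irf8 (1.41), Mrc1 (-3.09), Cebpa (-0.73), Atp6v1h (-2.91), Abcg1 (1.68), Med26 (0.17) and Ciita (-0.11). With regions mostly inside the window it turned for Ifitm6 (0.19), Vsig8 (1.03) and Tagln2 (5.76). The median of replication genes was -0.070 among genes above 0 in all libraries, -0.003 without WT replicate 2 and -0.034 without replicate 1.

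Leaving out 1 library or 1 replicate number gave 389 to 544 called higher and 142 to 172 lower, and at the adjusted p alone 2511 to 4279 higher (1215 to 1918 centred). Chemokines had 0 to 1 higher, 4 to 10 lower and medians of -0.57 to -0.34 (-0.87 to -0.61 centred), and the interferon list 1 to 2 higher. Starts gave 658 to 1725 higher and 160 to 314 lower, bodies 1700 to 3124 higher, and downstream stretches 404 to 768 and 526 to 751. The ranges were 369 to 1827 and 263 to 323 for 1 against 0 h, 2313 to 3293 and 594 to 701 for 1 against 18 h, 220 to 315 and 175 to 334 at 0 h, and 568 to 672 and 778 to 1124 at 18 h. H3K27ac gave 7 to 3853 higher and 16 to 2675 lower, and the number of regions differed by -133.5 to 293.5.

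With the replicate number as a replicate block, 423 genes were called higher and 151 lower, with 4513 and 899 at the adjusted p alone. Same-numbered KO and WT libraries had correlations of their deviations of 0.03, -0.01 and 0.03, so the numbers do not pair them.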
